A study of Mus musculus with 6 samples.

Results

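The mitochondrial ribosomal protein genes were chosen by symbol, as genes of the array annotation whose name begins with Mrpl or Mrps followed by a digit. They numbered 76 of the 18193 genes measured, 47 of the large subunit (Mrpl) and 29 of the small subunit (Mrps), and each gene was read on its brightest probe set, by the mean of all 6 arrays. The groups were Sirt1-/- cells and Sirt1+/+ cells, both of the mouse embryonic stem cell line R1 with a (129X1 x 129S1)F1 background, with 3 arrays each. Cells of both genotypes grew on gelatin, in medium with serum and leukaemia inhibitory factor, a cytokine that holds embryonic stem cells undifferentiated. Total RNA was hybridised to Affymetrix whole-genome mouse expression arrays, and levels are log2 RMA values, so a difference of 1 is a 2-fold difference. The labels name 1 source of cells per genotype, so the effect of losing Sirt1 and any other way in which the 2 sources differ cannot be told apart. No label says that replicates within a genotype were cultured separately, and p-values then cover the spread among these samples alone, which may be technical.

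Mitochondrial ribosomes translate the few messenger RNAs encoded by mitochondrial DNA, which specify core subunits of the respiratory chain and of ATP synthase. The large subunit holds the peptidyl transferase centre and the tunnel through which the new protein leaves, and the small subunit decodes the messenger. The ribosomal RNAs come from mitochondrial DNA, whereas the proteins are encoded in the nucleus, made in the cytosol and imported. Some of these proteins have counterparts in bacterial ribosomes and others occur only in mitochondria. Sirt1 is an NAD-dependent deacetylase, and the coactivator PGC-1alpha, which acts on genes of mitochondrial biogenesis through factors such as NRF1, is among its known substrates.

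Sirt1 itself read 8.02, 7.94 and 8.20 in the knockout arrays, against 10.12, 10.13 and 10.23 in the wild-type arrays. The groups did not overlap, and the log2 change was -2.11 with an SE of 0.08 (limma adjusted p = 3.98e-05 after Benjamini-Hochberg). A two-sided exact permutation test on Sirt1 gave p = 0.1, and no lower value is possible with 3 against 3 arrays. The position of the Sirt1 probe set relative to the deletion was not given in the sources used here. Arrays of one genotype correlated at Pearson's r of 0.997 to 0.998 across genes, and arrays of different genotype at 0.989 to 0.991, where genes are not independent replicates. The embryonic stem cell markers fixed as a list averaged 11.93 to 11.98 in knockout arrays and 12.24 to 12.28 in wild-type arrays. Of the 7, 4 were lower in the knockout and 0 higher. Their changes ran from -0.90 to 0.10, with a median of -0.23 and 5 below 0. Pou5f1, the defining factor, had the highest of these changes and did not pass. It read 12.39 ± 0.02 in the knockout and 12.29 ± 0.04 in the wild type (SD, n = 3 each). Fibroblast markers, for feeder cells, averaged 3.84 to 3.99 in the knockout and 4.01 to 4.11 in the wild type, with 2 of 10 lower, Thy1 and Pdgfrb. Of the endoderm markers, 2 of 5 were lower in the knockout, and of the neuroectoderm markers 2 of 4 were higher. The endoderm markers were dim, at levels of 4.07 to 5.57, all below the median of all genes, 5.83. The neuroectoderm markers lay between 4.24 and 6.51. Over all genes 12.5% were higher and 17.5% lower. The part of these marker differences in the results below was not tested.

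Among the 76 mitochondrial ribosomal protein genes, 9 were higher and 14 lower in the knockout at a limma Benjamini-Hochberg adjusted p under 0.05, and 53 did not pass. That is 30.3% of the members called, and over all genes 30.02% were called, 12.5% higher and 17.5% lower. The members' share was thus close to that of the array as a whole. With the arrays centred on their medians, 9 members were higher and 9 lower. All 76 members had a level above the median of all genes, 5.83, and their own levels lay between 7.39 and 11.71. Among the 6238 genes at least as bright as the dimmest member, 49.9% were called, a larger share than among the members. In this bulk RNA, fewer cells with a transcript and less of it per cell cannot be told apart.

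The changes were small and went both ways. They ran from -0.69 to 0.58 on the log2 scale, with a median of -0.02 for the members and -0.01 for all genes. The interquartile range was -0.13 to 0.08 for the members, and -0.18 to 0.17 for the genes at least as bright. The median absolute change was 0.11 among the members and 0.18 among those bright genes. In 49 members, 64.5%, the 3 knockout arrays did not overlap the 3 wild-type arrays, 20 above and 29 below. Over all genes this share was 43.8%, with 19.1% above and 24.7% below, and among the genes at least as bright it was 71.6%, above that of the members. A change of at least 0.3 that also passed the test was seen in 7 members, and 20.8% of all genes met both conditions.

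**Figure D1:**
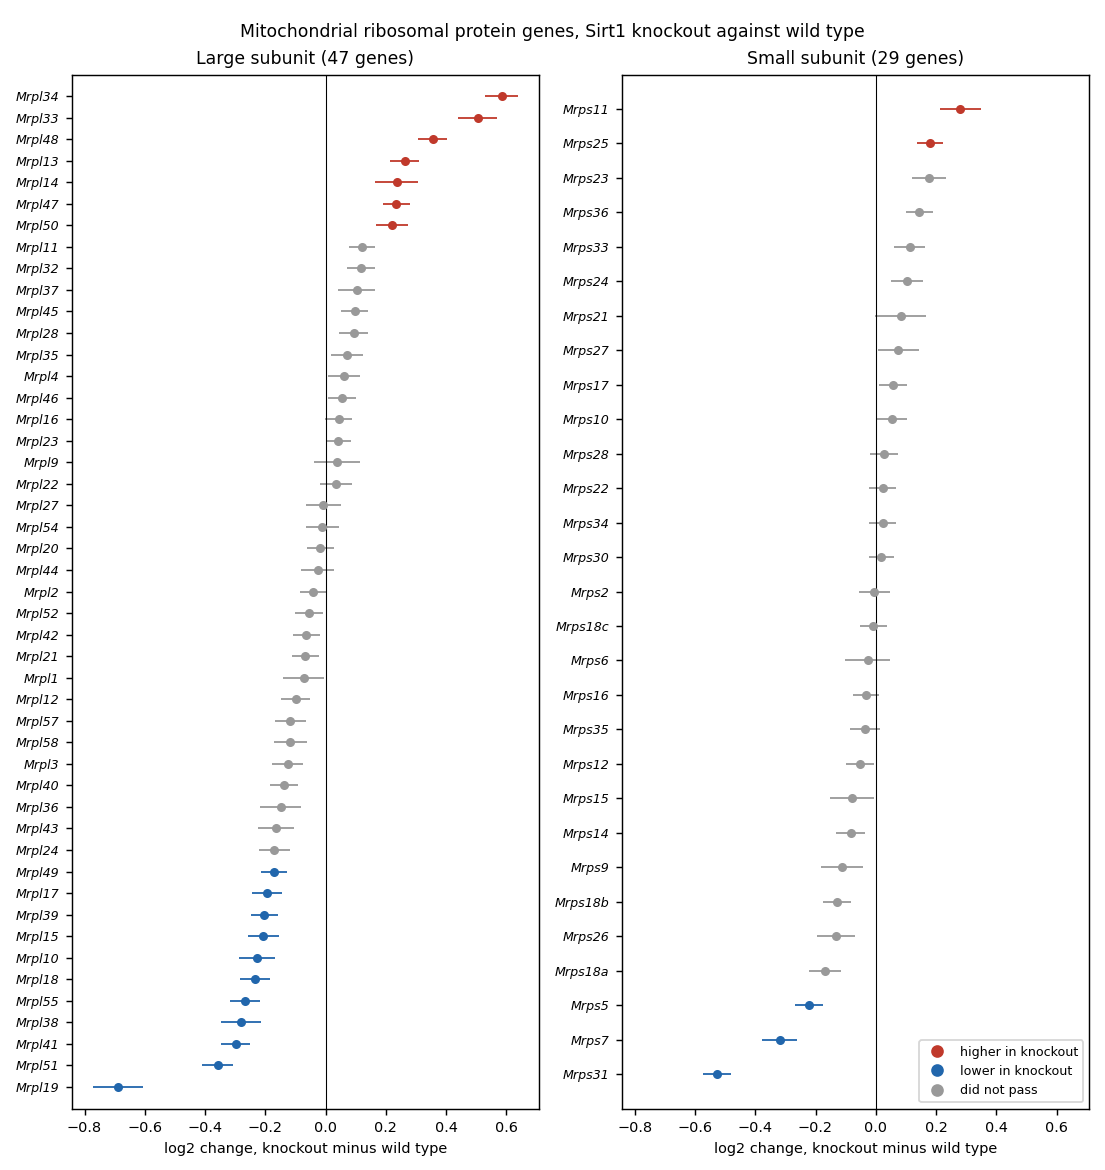
Log2 change (knockout minus wild type, horizontal axis) of each mitochondrial ribosomal protein gene, large subunit on the left and small subunit on the right, with bars of 1 SE on 3 arrays per genotype. Coloured points passed the limma test over all genes: 7 higher and 11 lower in the large subunit, 2 higher and 3 lower in the small subunit, and most grey points lie near 0.

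The counts fell when any array was left out. Over all genes they fell too, from 2270 higher and 3192 lower to 1656 to 2009 higher and 2448 to 2759 lower. These fits cannot tell a call that rests on 1 array from a call lost because fewer arrays were left. Of the 23 calls among members, 13 held whichever array was left out, 5 higher and 8 lower. Without wild-type array 1, 5 members were higher; without wild-type array 3, 8 were lower, and without knockout array 2, 9 were lower. Those that held throughout were Mrpl34, Mrpl33, Mrpl48, Mrpl13 and Mrpl47 among the higher genes, and Mrpl19, Mrps31, Mrpl51, Mrps7, Mrpl41, Mrpl55, Mrpl18 and Mrps5 among the lower ones. The call of Mrpl49 was lost in all 6 such fits.

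In the large subunit 18 of 47 genes, 38.3%, were called, 7 higher and 11 lower, with a median change of -0.04. In the small subunit 5 of 29, 17.2%, were called, 2 higher and 3 lower, with a median of -0.00. The difference between the shares of the 2 subunits was not tested. Over all genes 30.02% were called. Among the genes at least as bright as the dimmest member the share was 49.9%, above that of either subunit. With centred arrays the large subunit had 7 higher and 6 lower, and its count of lower genes was 7 without wild-type array 1, 5 without wild-type array 3, 7 without knockout array 1, 6 without knockout array 2 and 7 without knockout array 3.

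Averaged over their genes, the subunits kept nearly the same distance in each array. The mean large-subunit level exceeded the mean small-subunit level by 0.227, 0.217 and 0.189 in the knockout arrays and by 0.223, 0.213 and 0.220 in the wild-type arrays. The means of this difference were 0.211 ± 0.019 in the knockout and 0.219 ± 0.005 in the wild type (SD, n = 3 each), with overlapping arrays. The mean over all 76 genes was 9.42, 9.46 and 9.46 in the knockout arrays and 9.47, 9.45 and 9.49 in the wild-type arrays, again overlapping. Probe sets differ in how strongly they bind, so these means are compared between arrays only.

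Promoters were available for 67 of the 76 members, from RefSeq on GRCm38.p6, as 73 windows of 300 bases that run from 250 before to 50 after a transcript start. Missing from that table were Mrpl13, Mrpl15, Mrpl19, Mrpl38, Mrpl4, Mrpl54, Mrps28, Mrps34 and Mrps35. Binding motifs of factors known for nuclear genes of mitochondrial proteins were searched on both strands: NRF1 (GCGCNTGCG), the ETS motif read by GABP (CCGGAAGT), YY1 (AAGATGGCG) and the GC box (GGGCGG). Matches of the first 3 in the member windows did not overlap each other. A match is a description of these letters and not evidence of binding. In the windows printed here, chosen because Mrpl33 rose and Mrpl51 fell with the same motif and because Mrps11 and Mrpl46 share a promoter, capitals mark matches of the first 3 motifs. The Mrpl33 window is chr5:31613701-31614000 on the plus strand, and that of Mrpl51 is chr6:125191950-125192249 on the plus strand. The Mrps11 window is chr7:78782881-78783180 on the plus strand, and that of Mrpl46 is chr7:78783040-78783339 on the minus strand.
Mrpl33: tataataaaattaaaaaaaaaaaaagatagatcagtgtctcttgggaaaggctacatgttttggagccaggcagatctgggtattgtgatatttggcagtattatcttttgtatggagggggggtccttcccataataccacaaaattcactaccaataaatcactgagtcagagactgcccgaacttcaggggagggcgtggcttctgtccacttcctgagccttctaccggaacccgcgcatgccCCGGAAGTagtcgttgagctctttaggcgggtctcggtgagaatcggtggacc
Mrpl51: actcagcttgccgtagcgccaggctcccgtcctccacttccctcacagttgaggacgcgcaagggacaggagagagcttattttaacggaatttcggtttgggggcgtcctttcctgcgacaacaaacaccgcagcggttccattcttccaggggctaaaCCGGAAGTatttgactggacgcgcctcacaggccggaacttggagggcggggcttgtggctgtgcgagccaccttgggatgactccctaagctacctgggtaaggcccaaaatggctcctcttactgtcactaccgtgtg
Mrps11: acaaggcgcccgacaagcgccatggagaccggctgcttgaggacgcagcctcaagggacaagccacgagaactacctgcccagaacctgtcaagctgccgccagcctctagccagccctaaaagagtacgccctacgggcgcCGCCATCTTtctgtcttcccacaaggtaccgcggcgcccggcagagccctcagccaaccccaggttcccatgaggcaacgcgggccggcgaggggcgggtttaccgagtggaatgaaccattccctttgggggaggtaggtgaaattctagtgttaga
Mrpl46: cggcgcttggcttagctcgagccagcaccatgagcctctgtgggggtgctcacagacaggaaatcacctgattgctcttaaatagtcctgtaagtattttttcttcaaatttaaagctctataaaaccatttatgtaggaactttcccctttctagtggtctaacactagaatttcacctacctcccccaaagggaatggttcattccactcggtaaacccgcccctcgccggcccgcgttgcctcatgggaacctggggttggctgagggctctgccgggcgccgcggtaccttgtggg

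Mrpl34, the counterpart of bacterial L34, had the highest rise among the members. It read 10.23, 10.12 and 10.25 in the knockout arrays, against 9.60, 9.59 and 9.66 in the wild-type arrays. The lowest knockout array thus lay well above the highest wild-type array, at a log2 change of 0.58 (SE 0.05, limma adjusted p = 0.000522), or 1.50-fold. Mrpl33, the counterpart of bacterial L33, read 8.58, 8.80 and 8.69 in knockout arrays and 8.21, 8.15 and 8.20 in wild-type arrays. Its groups were also apart, and the change was 0.50 (SE 0.07, limma adjusted p = 0.00187), or 1.42-fold. Mrpl48, a mitochondrion-specific protein of the central protuberance, the crest of the large subunit, read 8.77, 8.76 and 8.76 in the knockout and 8.46, 8.36 and 8.40 in the wild type. That rise of 0.36 (SE 0.05, limma adjusted p = 0.00212) came with an SD of 0.01 among the knockout arrays and 0.05 among the wild-type arrays.

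The other large-subunit rises were smaller than 0.3. Mrpl13, counterpart of a bacterial protein that binds early in large-subunit assembly, read 10.22, 10.31 and 10.23 in knockout arrays and 10.02, 9.98 and 9.98 in wild-type arrays, a change of 0.26 (SE 0.05, limma adjusted p = 0.00745). Mrpl14, which in human mitochondria binds the assembly factor MALSU1, read 8.29, 8.10 and 8.20 in knockout arrays and 7.858, 8.004 and 8.021 in wild-type arrays, a change of 0.24 (SE 0.07, limma adjusted p = 0.0492). The knockout arrays of Mrpl14 were all higher, but its lowest knockout and highest wild-type arrays were close. Mrpl47, the L29 counterpart near the mouth of the exit tunnel, read 10.22, 10.20 and 10.19 in knockout arrays and 9.929, 9.995 and 9.982 in wild-type arrays, a change of 0.23 (SE 0.04, limma adjusted p = 0.00872). Mrpl50, a mitochondrion-specific protein, changed by 0.22 (SE 0.05, limma adjusted p = 0.0210).

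Mrpl19 fell the most. This counterpart of bacterial L19, a protein at the interface between subunits, read 7.82, 8.05 and 7.94 in knockout arrays, against 8.62, 8.52 and 8.74 in wild-type arrays. Its log2 change of -0.69 (SE 0.08, limma adjusted p = 0.00134) is a 1.61-fold lower level and was larger in size than that of 94.8% of all genes. Mrpl51, a mitochondrion-specific protein, read 10.41, 10.50 and 10.41 in the knockout and 10.80, 10.75 and 10.85 in the wild type, a change of -0.36 (SE 0.05, limma adjusted p = 0.00306). Its call was lost with the mean of its probe sets, at -0.17. Both genes had all knockout arrays below all wild-type arrays.

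Of the remaining falls in the large subunit, Mrpl41, which in human cells is also known to bind BCL2, read 9.04, 9.09 and 8.99 in knockout arrays and 9.36, 9.31 and 9.34 in wild-type arrays, at -0.30 (SE 0.05, limma adjusted p = 0.0045), a call lost with the mean of its probe sets, at -0.20. Mrpl38, of the central protuberance, read 8.28, 8.27 and 8.28 in knockout arrays and 8.61, 8.43 and 8.63 in wild-type arrays, at -0.28 (SE 0.07, limma adjusted p = 0.0204). The second wild-type array of Mrpl38 lay nearer the knockout arrays than to the other wild-type arrays. Mrpl55, a counterpart of bacterial L31, changed by -0.27 (SE 0.05, limma adjusted p = 0.00717). Mrpl18, whose bacterial counterpart binds the 5S ribosomal RNA that mammalian mitoribosomes lack, changed by -0.24 (SE 0.05, limma adjusted p = 0.0129). The falls of Mrpl10, Mrpl15, Mrpl39, Mrpl17 and Mrpl49 were between -0.23 and -0.17, with adjusted p from 0.0164 to 0.0303 in limma.

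In the small subunit the rises were Mrps11 and Mrps25. Mrps11, which sits on the platform near the messenger RNA exit, read 7.53, 7.73 and 7.64 in knockout arrays, against 7.28, 7.38 and 7.40 in wild-type arrays, a change of 0.28 (SE 0.07, limma adjusted p = 0.0213). Mrps25, a mitochondrion-specific protein, read 8.80, 8.86 and 8.83 in knockout arrays and 8.66, 8.65 and 8.64 in wild-type arrays, a change of 0.18 (SE 0.04, limma adjusted p = 0.0220). Neither group pair overlapped, but neither call held throughout when arrays were left out: Mrps11 was lost without wild-type array 1, knockout array 2 or knockout array 3, and Mrps25 in 5 of 6 fits.

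The falls were Mrps31, Mrps7 and Mrps5. Mrps31, a mitochondrion-specific protein, read 9.47, 9.54 and 9.53 in knockout arrays, against 10.01, 10.06 and 10.05 in wild-type arrays. With an SD of 0.04 in the knockout and 0.03 in the wild type, its change of -0.53 (SE 0.05, limma adjusted p = 0.000448) had the smallest p of all members. Mrps7, the counterpart of the bacterial protein that starts assembly of the head, read 8.51, 8.59 and 8.60 in knockout arrays and 8.83, 8.86 and 8.97 in wild-type arrays, at -0.32 (SE 0.06, limma adjusted p = 0.00698). Mrps5, whose bacterial counterpart affects decoding accuracy, read 8.89, 8.82 and 8.89 in knockout arrays and 9.06, 9.11 and 9.09 in wild-type arrays, at -0.22 (SE 0.05, limma adjusted p = 0.0123). All 3 genes were lower in each knockout array than in each wild-type array.

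**Figure D2:**
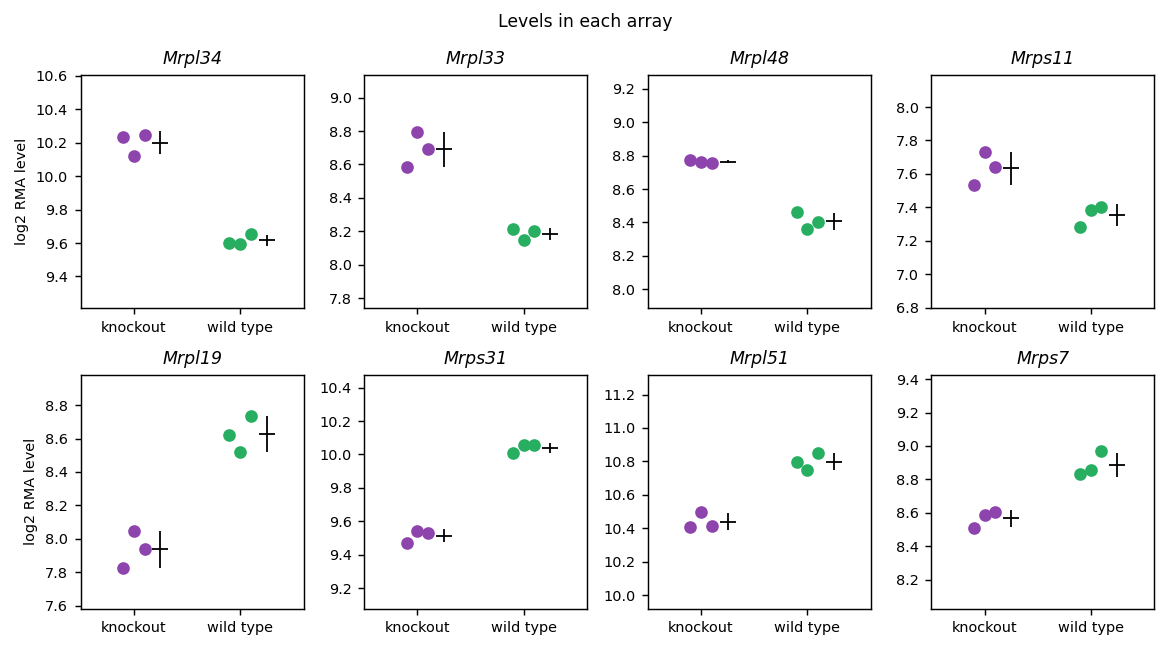
Log2 RMA level (vertical axis, each panel with its own range) of 4 genes that were higher and 4 that were lower, in the 3 knockout and the 3 wild-type arrays, with mean and SD as bars beside the points. In each panel the knockout points lie wholly above or wholly below the wild-type points, from 0.58 for Mrpl34 to -0.69 for Mrpl19.

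The 10 calls among the members that were lost in at least 1 fit with an array left out had changes between -0.28 and 0.28. Mrpl10 was lost without wild-type array 1, wild-type array 3, knockout array 2 or knockout array 3, and Mrpl39 without wild-type array 3 or knockout array 2. Mrpl15 was lost without wild-type array 2, wild-type array 3, knockout array 1 or knockout array 2, and Mrpl17 without wild-type array 1, wild-type array 3, knockout array 1 or knockout array 3. Mrpl14 held only without knockout array 2, Mrpl38 only without wild-type array 2 and Mrps25 only without knockout array 1. Mrpl50 was lost without wild-type array 1, wild-type array 2, knockout array 1 or knockout array 2. All of these changes kept their sign, and the highest adjusted p among them was 0.142 in limma, for Mrpl14.

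A further 4 members lay just outside the threshold. They were Mrpl24 at -0.17 (limma adjusted p = 0.0509), Mrps36 at 0.14 (0.0523), Mrps18a at -0.17 (0.0556) and Mrps23 at 0.18 (0.0592), each with non-overlapping arrays. The called member closest to the threshold was Mrpl14. The brightest members showed small changes. In the large subunit Mrpl15, the brightest probe set at 11.71, changed by -0.21 and Mrpl39, at 11.25, by -0.20, and both passed. Mrpl42, at 11.35, changed by -0.06 and did not pass. Mrps14, Mrps16 and Mrps24, the brightest of the small subunit, read 11.10, 10.75 and 10.59 in the knockout and 11.18, 10.79 and 10.48 in the wild type, and none of the 3 passed. Among the dimmest, Mrps27, Mrpl37 and Mrpl1 did not pass either, whereas Mrpl55 and Mrps11 did.

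Several symbols do not match where the protein sits. Structures place Mrps30 and Mrps18a in the large subunit, and Mrps36 has been assigned to the 2-oxoglutarate dehydrogenase complex. With these moved, the large subunit had 7 higher and 11 lower of 49, and the small subunit 2 higher and 3 lower of 26, so the counts of calls stayed as they were. Mrps30 read 10.09 ± 0.01 in the knockout and 10.07 ± 0.01 in the wild type (SD, n = 3 each), a change of 0.02 that did not pass.

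Mrps18a, Mrps18b and Mrps18c are paralogues of bacterial S18 that take different sites on the ribosome. Mrps18a read 8.90 ± 0.07 in the knockout and 9.06 ± 0.01 in the wild type, Mrps18b read 9.19 ± 0.03 in the knockout and 9.32 ± 0.04 in the wild type, and Mrps18c read 9.83 ± 0.03 in the knockout and 9.84 ± 0.02 in the wild type (SD, n = 3 each). None of the 3 passed, with limma adjusted p of 0.0556, 0.0811 and 0.920, and unadjusted p of 0.0172, 0.0278 and 0.858. The arrays of Mrps18a and Mrps18b did not overlap between genotypes, and those of Mrps18c did.

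Members with a bacterial counterpart and mitochondrion-specific members both had calls in either direction. Of the 45 listed as conserved, 5 were higher and 7 lower, with a median change of -0.02. Of the 30 listed as mitochondrion-specific, 4 were higher and 7 lower, with a median of -0.03, and Mrps36 was counted in neither. The shares called were 26.7% and 36.7%, against 30.02% over all genes and 49.9% among the genes at least as bright as the dimmest member. The list left Mrpl47 and Mrpl55 among the mitochondrion-specific genes, although both have bacterial counterparts; moved after their values were seen, they give 6 higher and 8 lower of 47 conserved genes, and 3 higher and 6 lower of 28 others.

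Members were also grouped by position in the ribosome, again after the values were seen. Each of the 5 regions listed had at least 1 call, and those with more than 1 had calls in both directions. For comparison, 30.02% of all genes were called, and 49.9% of the genes at least as bright as the dimmest member. With only 3 to 7 genes per region, these calls do not set a region apart from other genes, which was not tested. In the stalk, where translation factors bind, Mrpl10 fell, while Mrpl11 at 0.12 and Mrpl12 at -0.10 did not pass. In the central protuberance Mrpl48 rose, Mrpl38 and Mrpl18 fell, and Mrpl40 and Mrpl46 did not pass. Around the exit tunnel Mrpl47 rose and Mrpl17 fell, and the other 5 genes did not pass. In the head 1 of 5 genes fell, Mrps7, and on the platform 1 of 5 rose, Mrps11.

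The 76 genes had 156 probe sets with a single symbol, and 42 genes could be read on more than 1. Tested over all probe sets, where 19.8% were called, 18 probe sets of members were higher and 17 lower. In Mrpl13, 3 of 4 probe sets were higher, and in Mrpl19, 3 of 4 were lower. All 8 probe sets of Mrpl15 had a negative change, -0.43 to -0.08, and 2 of them passed. Both probe sets of Mrps11 were higher, at 0.28 and 0.85, and both of Mrpl39 lower, at -0.20 and -0.30.

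In 3 genes the probe sets went against each other. For Mrps31 the bright probe set at 9.78 gave -0.53, and a dim one at 3.49 gave 0.30. For Mrpl38 the values were -0.28 at a level of 8.42 and 0.48 at 4.67. For Mrps5 the brightest probe set gave -0.22 at 8.98, and one at 7.49 gave 0.29. Each of these 6 values passed the test over all probe sets. Mrpl1, a counterpart of bacterial L1, did not pass on its brightest probe set (-0.07 at 7.96), while its other probe sets rose by 0.48 at 6.53 and 0.35 at 2.92. Mrpl33 and Mrpl34 each had a second, dimmer probe set that did not pass, at -0.17 and 0.38. Some calls that held whichever array was left out did not hold on other probe sets. With the mean of a gene's probe sets, none of Mrpl33 at 0.17, Mrpl47 at 0.15, Mrps31 at -0.11, Mrpl51 at -0.17, Mrpl41 at -0.20 and Mrps5 at -0.01 passed. With the probe set of largest SD, Mrpl47 at 0.21, Mrpl51 at -0.16, Mrpl41 at -0.06 and Mrps5 at -0.15 did not pass. For Mrpl41 a second bright probe set, at 9.06, was also lower at -0.23, whereas the other probe sets of Mrpl51, at 5.75 and 4.41, gave 0.02 and -0.16. Which transcript each probe set reads was not tested.

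**Figure D3:**
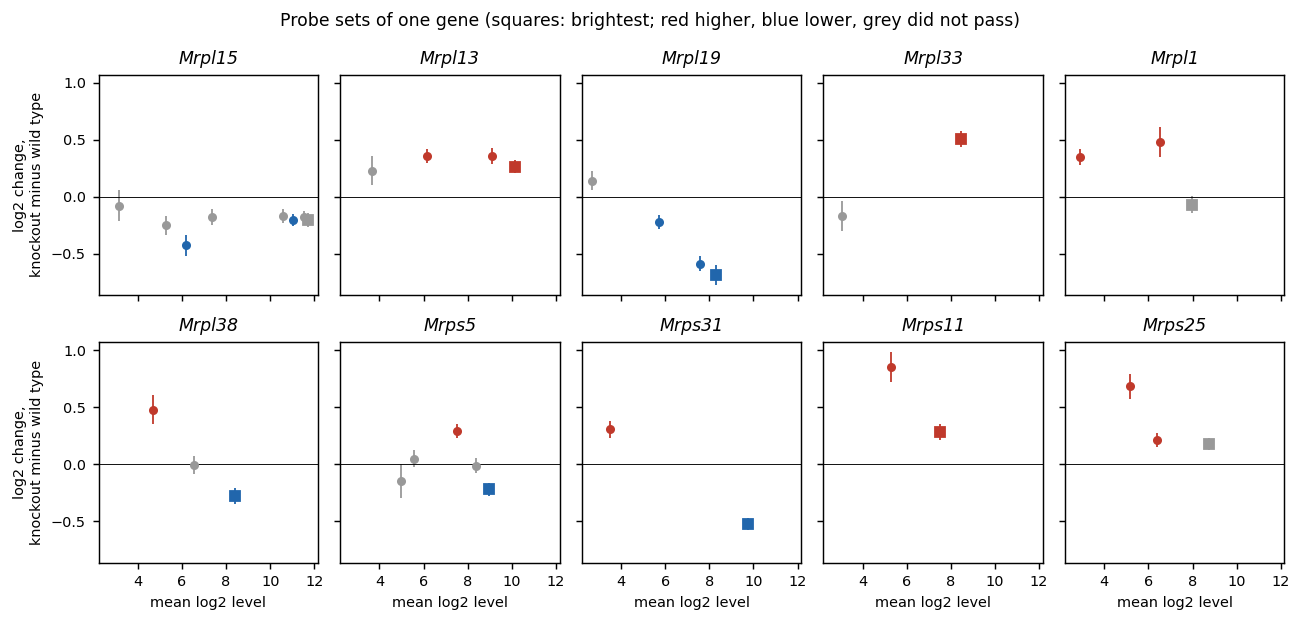
Log2 change (vertical axis, bars 1 SE) against mean log2 level (horizontal axis) for each probe set of 10 members, with squares for the brightest. Colours give the call over all probe sets, which is stricter for the brightest probe sets of Mrpl15 and Mrps25 than the call over genes. Mrpl38, Mrps5 and Mrps31 have both a blue and a red point, whereas the points of Mrpl15, Mrpl13 and Mrps11 lie on one side of 0.

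Mrpl34 and Mrps31 are the members on chromosome 8. Of the 932 measured genes of that chromosome, 313 (33.6%) were higher and 98 (10.5%) lower in the knockout, with a median change of 0.08, and over all genes 12.5% were higher. Around Mrpl34, 6 of the 10 nearest measured genes were higher and the other 4 did not pass, with a median of 0.37. They include Abhd8 at 0.84 and Dda1 at 0.51, which adjoin it, and Gtpbp3, a mitochondrial transfer RNA modification enzyme, at 1.07. Around Mrps31, 4 of 10 were higher and 4 lower, with a median of -0.08. Its neighbour Smim19 was at -0.65, and Polb, a DNA repair polymerase, at -0.45. The neighbours were chosen by position alone.

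Without chromosome 8 the members had 8 higher and 13 lower of 74. Among the members and the functionally related genes described below, 8 lay on chromosome 8, of which 4 were higher, 1 was lower and 3 did not pass. The 4 were Mrpl34, Gadd45gip1, Mpv17l2 and Pdf. The share that the chromosome has in these rises was not tested.

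**Figure D4:**
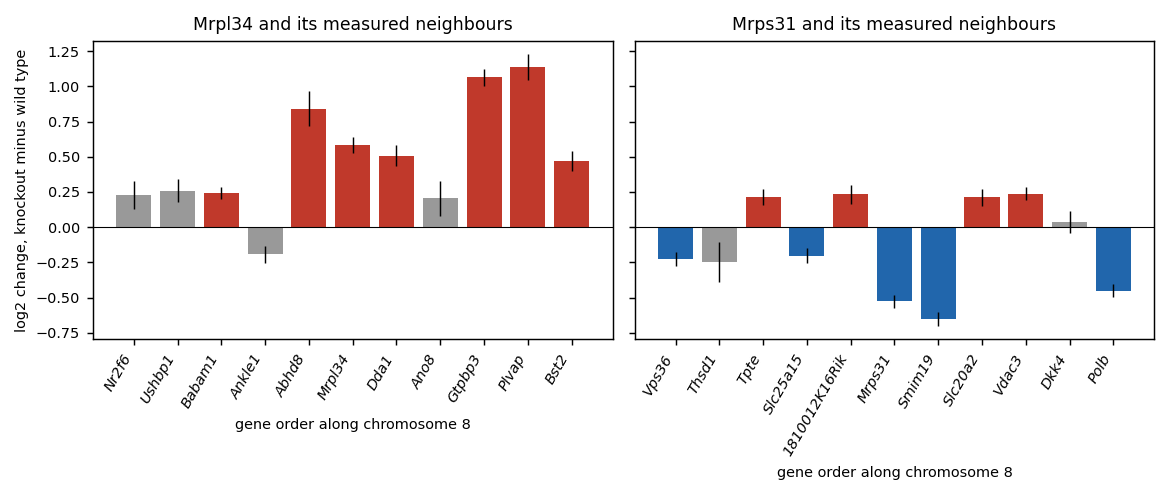
Log2 change (bars from 0, error bars 1 SE, 3 arrays per genotype) of Mrpl34, Mrps31 and the 5 measured genes on each side of them, in gene order along chromosome 8. Red bars were higher, blue bars lower and grey bars did not pass: Mrpl34 at 0.58 stands among neighbours that reach 1.14, and Mrps31 at -0.53 beside Smim19 at -0.65, among neighbours of both signs.

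In the promoter windows introduced above, the NRF1 motif was in 23.3% of member windows and in 10.04% of the windows of all measured genes. The ETS motif was in 16.4% of member windows, against 5.85%, and the YY1 motif in 10.96% against 2.10%. The GC box was in 53.4% of member windows, against 52.4%. Members with these motifs went both ways or did not pass. Of 17 genes with the NRF1 motif, Mrpl14 was higher, Mrpl10, Mrpl17, Mrpl39 and Mrps7 were lower and 12 did not pass. Of 12 with the ETS motif, Mrpl33 and Mrpl48 were higher, Mrpl18 and Mrpl51 lower and 8 did not pass. Mrpl48 has several windows, and only that at chr7:100583081-100583380 holds the ETS motif. Of 8 with the YY1 motif, Mrps11 was higher and 7 did not pass. For comparison, of all 67 members with a window, 8 were higher, 11 lower and 48 did not pass. Over all genes 30.02% were called. Differences between members with and without a motif were not tested.

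Mrps11 and Mrpl46 start 42 bases apart on opposite strands, and 141 bases of the printed windows are the same DNA. Mrps11 rose by 0.28, whereas Mrpl46, a protein of the central protuberance, read 8.95, 8.97 and 8.97 in knockout arrays and 8.90, 8.87 and 8.95 in wild-type arrays. Those Mrpl46 arrays overlapped, and the change of 0.05 did not pass (limma adjusted p = 0.464). The difference between the genes' changes was not tested.

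In all, 25 members had a measured gene that starts within 1000 bases on the opposite strand and runs the other way. Of the 11 such members that were called, the partner was called the same way for Mrps7, with Gga3 at -0.23, and for Mrpl41, with Pnpla7 at -0.76. The partners of the other 9 did not pass, with changes from -0.29 for Zfp661 beside Mrps5 to 0.08 for Ndufb5 beside Mrpl47. Between these lay Tcp1 beside Mrpl18 at -0.04 and Fau beside Mrpl49 at 0.04. Over all genes 12.5% were higher and 17.5% lower. Across the 25 pairs the changes of member and partner had the same sign in 16, and their correlation was 0.431. That value is a description of points from the same 6 arrays, in which the pair of Mrps11 and Mrpl46 counts from both sides.

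Some mitoribosomal proteins and factors bear other symbols, and 5 of those listed were measured. Gadd45gip1 (mL64) read 8.73, 8.70 and 8.78 in knockout arrays and 8.24, 8.28 and 8.27 in wild-type arrays, a rise of 0.48 (SE 0.05, limma adjusted p = 0.000615). Dap3, a GTP-binding protein of the small subunit, read 11.19, 11.17 and 11.20 in knockout arrays and 11.41, 11.46 and 11.45 in wild-type arrays, a change of -0.25 (SE 0.04, limma adjusted p = 0.00592). Both genes had non-overlapping arrays. Chchd1 (mS37) was higher by 0.15 (limma adjusted p = 0.0394), a call lost whenever an array was left out, and with centred arrays, where 1 of the 5 was higher and 1 lower. Ptcd3, at -0.17, and Oxa1l, the inner-membrane insertase that receives new proteins from the ribosome, at -0.00, did not pass.

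Translation factors of mitochondria had more falls than rises, with 6 lower and 1 higher of 11 measured and a median change of -0.26. That is 63.6% called, whereas over all genes 30.02% were called, 12.5% higher and 17.5% lower. Mtrf1l, a release factor that ends translation, read 5.72, 5.89 and 5.87 in knockout arrays and 6.98, 6.81 and 6.92 in wild-type arrays, a change of -1.08 (SE 0.07, limma adjusted p = 0.000168). Mtif2, the initiation factor, read 8.74, 8.92 and 9.05 in knockout arrays and 9.58, 9.60 and 9.62 in wild-type arrays, a change of -0.70 (SE 0.08, limma adjusted p = 0.00134). The fall of Mtrf1l exceeded that of any mitochondrial ribosomal protein gene. The fall of Mtif2 was about equal to that of the member Mrpl19, at -0.69 (SE 0.08). Other falls in the list were Gfm2, a recycling factor, at -0.33, and Mtfmt, which formylates the initiator, at -0.32. The elongation factors Tufm, at -0.27, and Gfm1, at -0.26, were lower too. Pdf, which removes the formyl group, was the one higher, at 0.28, and lies on chromosome 8. The count of lower genes ranged from 5 to 7 as arrays were left out, and Pdf's call was lost without wild-type array 1 or knockout array 2. Without wild-type array 3, 2 were higher. The difference between this list and the members was not tested.

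Assembly factors went both ways, 5 higher and 4 lower of 24, with a median of -0.06. The share called was 37.5%, against 30.02% over all genes. Mpv17l2, a membrane protein needed for ribosome assembly, rose by 0.53, and Rcc1l by 0.45. Tfb1m, which methylates the small-subunit ribosomal RNA, changed by -0.38, and Rpusd4, a pseudouridine synthase, by 0.31. The number of rises dropped to 2 without wild-type array 1, wild-type array 2, knockout array 2 or knockout array 3, and to 3 without wild-type array 3. The number of falls was 2 without wild-type array 3, knockout array 2 or knockout array 3. The call of Rpusd4 held only without knockout array 1.

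Of 16 mitochondrial aminoacyl-transfer RNA synthetases, 2 were higher and 3 lower, with a median of -0.10. Their share called, 31.25%, was close to the 30.02% over all genes. Rars2, for arginine, read 9.03, 8.99 and 9.01 in knockout arrays and 9.67, 9.73 and 9.68 in wild-type arrays, a change of -0.68 (SE 0.04, limma adjusted p = 0.000155). Iars2 changed by -0.49, Lars2 by 0.46 and Sars2 by 0.40. Mars2 passed at -0.63 but on a dim probe set, at 2.78 ± 0.14 in the knockout and 3.41 ± 0.28 in the wild type (SD, n = 3 each), and its call was lost without knockout array 1 or knockout array 2. Sars2 starts 147 bases from the member Mrps12 on the opposite strand, and Mrps12 was at -0.05 and did not pass.

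Of 16 genes for the upkeep and expression of mitochondrial DNA, 1 was higher and 3 lower, with a median of -0.10. Their share called was below the 30.02% over all genes. Mterf1a, a transcription termination factor, changed by -0.69, Polg2, the accessory subunit of the mitochondrial DNA polymerase, by 0.51, and Lrpprc, which stabilises mitochondrial messengers, by -0.34. Tfb2m, which starts transcription, changed by -0.18, and its call was lost whenever an array was left out. Tfam, the main packaging factor of mitochondrial DNA, was at 0.01 and did not pass.

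Nuclear regulators of mitochondrial genes had 5 higher and 1 lower of 13, with a median of 0.11. The share called was 46.2%, against 30.02% over all genes. Gabpb1, a subunit of the ETS factor GABP, read 8.80, 8.85 and 8.81 in knockout arrays and 7.30, 7.30 and 7.37 in wild-type arrays, a change of 1.50 (SE 0.05, limma adjusted p = 2.89e-05). Its second probe set, at a mean level of 7.06, gave 0.14 and did not pass. Gabpa, the DNA-binding subunit, changed by -0.36 (SE 0.05, limma adjusted p = 0.0023), and its second probe set by -0.03. Opposite values for the GABP subunits thus rest on one probe set each.

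Nrf1, nuclear respiratory factor 1, gave a change of 0.41 on its brightest probe set, whereas a probe set at a mean level of 5.26 gave -0.44, and both passed. Among the coactivators, Ppargc1b (PGC-1beta) changed by 0.59 and Pprc1 by 0.23, while Ppargc1a (PGC-1alpha) read 3.20 ± 0.04 in the knockout and 3.09 ± 0.12 in the wild type (SD, n = 3 each), below the array medians of 4.51 to 4.57, and did not pass. Sirt3, the mitochondrial deacetylase, changed by 0.26. The calls of Pprc1 and Sirt3 were each lost without wild-type array 1, wild-type array 2, knockout array 2 or knockout array 3, which left 3 regulators higher. Gabpb2, Yy1, Esrra, Esrrb, Myc and Mycn did not pass on their brightest probe sets, with changes from -0.05 to 0.11, but second probe sets of Yy1 (-0.68), Gabpb2 (0.63) and Esrrb (0.57) did. Over the 6 lists of related genes together, 16 of 85 were higher and 18 lower, with a median of -0.07. The share called was above the 30.02% over all genes. It was below the 49.9% among the genes at least as bright as the dimmest member, though some related genes were dimmer than that. The higher count was 9 without wild-type array 1 or knockout array 2, and 10 without wild-type array 2 or knockout array 3.

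**Figure D5:**
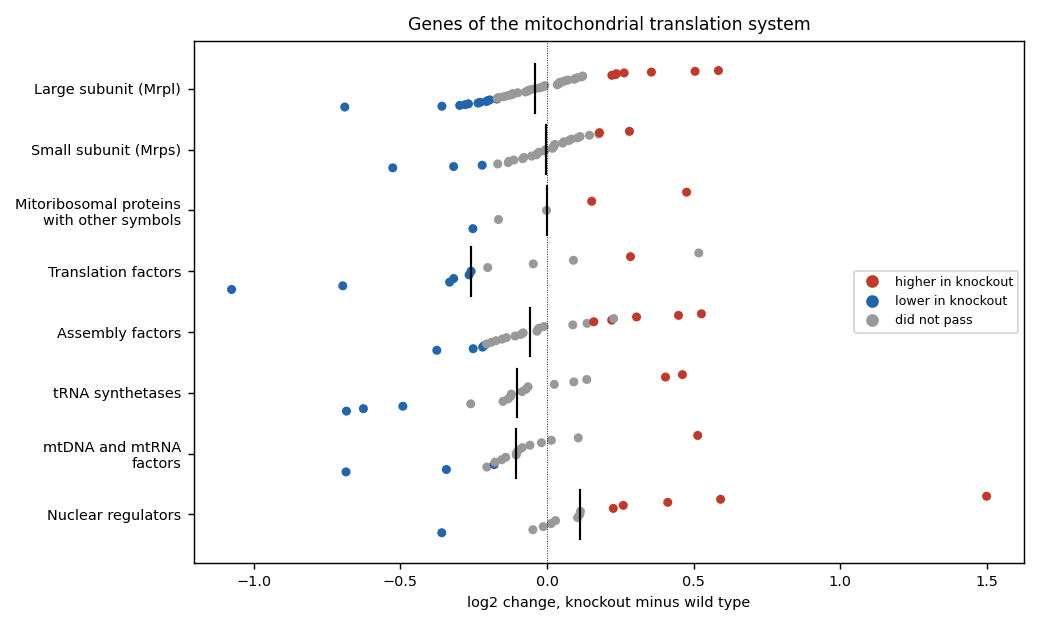
Log2 change (horizontal axis, knockout minus wild type) of each measured gene of the large and small subunits and of 6 lists of related genes, with a vertical bar at each list's median. Red points were higher, blue points lower and grey points did not pass: the subunits' points lie between -0.69 and 0.58, while Mtrf1l lies at -1.08 and Gabpb1 at 1.50.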

How the data were processed

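RNA of 3 Sirt1-/- and 3 Sirt1+/+ R1 cell samples was read on 1 array each. The authors deposited log2 values, and the submitters' processing notes name RMA and Partek 6.5. The RMA method removes background, equalises the arrays' distributions and summarises probes, which leaves relative rather than absolute levels. Its settings and the annotation version were not given in the sources. Of 45101 probe sets, 64 controls, 932 with several symbols and 9160 with none were left out of the gene test, and 34945 with 1 symbol gave 18193 genes, each on its brightest probe set, with no filter on dim ones. The gene test was limma 3.58.1 under R 4.3.3 (lmFit and eBayes, two-sided, Benjamini-Hochberg over all genes at 0.05), with 4 residual degrees of freedom; probe sets were tested likewise. Lists are described by counts and medians, with no list test. Tables and motif searches used Python 3.11.15; the NRF1 and YY1 motifs were shortened by 1 letter after longer forms, which matched fewer windows, had been searched. The number of arrays limits the precision.

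Tested on simulated data (18193 genes), the fit recovered 8% of changes of 0.25, 76% at 0.5 and 100% at 1 and at 2, with 8 false calls. Only 50 genes were changed at each size, a far smaller share than was called in the data, so the simulated threshold was stricter. The members, the lists of related genes and markers, and the tests were chosen with earlier results of these data known.

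The naming rule took members past the threshold with a change of at least 0.3, the 6 largest rises and falls per subunit, the brightest and dimmest 3 per subunit, Mrps18a, Mrps18b, Mrps18c, Mrps30, Mrps36, members with opposed probe sets or on chromosome 8, up to 4 genes per related list, and all regulators and mitoribosomal genes with other symbols. Any other gene was picked after seeing its values. Alternatives were other normalisation, filters, probe set choices, variance models and thresholds, the replicate block, and each array left out; leaving out probe sets with the suffixes _s_at and _x_at was added after seeing the data.

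Replicate numbers were checked for pairing: across genes, like-numbered arrays' deviations from the group means had correlations of 0.0515, -0.0865 and 0.198, and 1 of 3 knockout arrays correlated best with its own number, so the numbers were not taken to pair samples.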

Additional observations from a re-analysis of the deposited data

Results flagged for a closer look

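A probe set outside the gene comparison, because its annotation joins Nme3 and Mrps34, read 8.23 in the knockout and 7.55 in the wild type, a log2 change of 0.68 (limma over all probe sets, Benjamini-Hochberg adjusted p = 0.000461). It was singled out as a difference in data that the report's counts do not use. The probe set annotated to Mrps34 alone read 9.62 ± 0.02 in the knockout and 9.60 ± 0.03 in the wild type (SD, n = 3 each), a change of 0.02 that did not pass. Which of the genes the joint probe set reads was not tested. The other probe sets with joint names that include a mitochondrial ribosomal protein gene, for Mrpl30 (0.08 and -0.03) and Mrpl53 (0.18), did not pass.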

How the results depend on the processing

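Of the 16 alternatives, Mrpl34, Mrpl19, Mrpl13, Mrpl48, Mrpl55 and Mrps7 kept their call and direction in each. Mrpl55 and Mrps7 have 1 probe set each, so averaging probe sets or choosing another could not alter their changes. An intensity trend with robust variance called most, with 17 members higher and 24 lower (large subunit 11 and 17, small subunit 6 and 7). At an adjusted p under 0.01 there were 5 higher and 6 lower members (4 lower in the large subunit and 0 higher in the small one, where 2 are higher at 0.05), 1347 higher and 2009 lower genes, and 9 higher genes in the related lists. Removing the dimmest 40% of genes gave 4 higher and 5 lower in the small subunit and a median over all genes of -0.029. Centred arrays gave 9 lower members, 6 in the large subunit, and turned the median of all genes to 0.0040, of the small subunit to 0.014 and of the mitoribosomal genes with other symbols to 0.017.

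With the mean of all probe sets, 8 members were lower, 7 in the large and 1 in the small subunit, with medians of 0.0014 for members, -0.015 for the large subunit, 0.0050 for the small subunit, 0.095 for those with other symbols, -0.033 for the related lists and -0.0021 for all genes; Mrpl1 was then at 0.25 and Mrpl38 at 0.063. With the probe set of largest SD, 8 members were lower, 6 in the large subunit, with medians of 0.018 for the members and for each subunit, 0.030 for those with other symbols and -0.0013 for all genes; Mrpl1 and Mrpl38 were at 0.48, Nrf1 at -0.44 and Yy1 at -0.68. The probe set chosen thus sets the sign for those genes.

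Leaving out 1 array gave 5 to 7 higher and 8 to 12 lower members with medians of -0.037 to 0.0040. For the large subunit the ranges were 5 to 6, 5 to 9 and -0.056 to -0.039, and for the small subunit 0 to 2, 3 to 3 and -0.022 to 0.021. Over all genes they were 1656 to 2009, 2448 to 2759 and -0.028 to -0.0055, and over the related lists 9 to 15, 14 to 19 and -0.082 to -0.047. The genes with other symbols had medians of 0.025, 0.0070 and 0.0094 without wild-type array 3, knockout array 1 and knockout array 3.

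The replicate number as a block gave 18 called members, all among the 23 called without it, with 1 higher in the small subunit. It is not evidence on the size of an effect, since the numbers were not shown to pair the samples. The simulation missed most changes of 0.25, but it changed only 50 of 18193 genes at each size. In the data 30.02% of genes were called, which makes the Benjamini-Hochberg threshold less strict. Mrps5 at -0.22 and Mrpl47 at 0.23, for example, were called. The simulated recovery therefore does not give the share of such changes missed here.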
